A study of Homo sapiens with 4 samples.

Results

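Receptor tyrosine kinases are cell-surface proteins that bind a growth factor outside the cell and phosphorylate tyrosines inside it, on themselves and on adaptor proteins. The adaptors connect them to the RAS-MAPK, PI3K-AKT and phospholipase C-gamma pathways, and ubiquitin ligases, phosphatases and inhibitory adaptors switch them off. In human pluripotent stem cells the insulin and IGF receptors and the ERBB receptors are known for sustaining survival and self-renewal, and KDR, PDGFRA and KIT are used as surface markers when such cells differentiate. The genes described here are receptor tyrosine kinases other than the FGF and ephrin receptors, together with their ligands. They were taken from a given list of 51 genes by their symbol in the deposited table. Of these, 44 are among the 17472 genes listed there and 7 are not (AREG, INSRR, HGF, NTRK2, ALK, LTK and MUSK); every listed gene has at least 1 read in each library, and these 7 are not analysed here. The 44 comprise 27 receptor kinases, 16 ligands and IGF2R, which is a clearance receptor for IGF2 and not a kinase.

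The cells were H1, an established human embryonic stem cell line, grown in E8, a defined medium whose listed components include insulin, FGF2 and TGF-beta. The MEK5DD group (2 libraries) carried MAP2K5 with residues changed to aspartate, delivered by lentivirus and followed by puromycin selection as 1 line. The WT group (2 libraries) was unmodified H1. MAP2K5 (MEK5) is the kinase that activates MAPK7 (ERK5). No cells with lentivirus and puromycin but without MEK5DD are among the samples, so delivery, selection and the line itself cannot be told apart from MEK5DD. Poly(A) RNA was sequenced as paired-end reads, and the question addressed is which transcripts differ between MEK5DD and WT cells.

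Recovered reads ranged from 14908486 to 17628945 per library. MAP2K5 had 3382 and 3558 normalised counts in the MEK5DD libraries, against 344 and 315 in the WT libraries, so the targeted gene was higher in the group labelled MEK5DD (10.5-fold, log2 fold change 3.40, SE 0.08). The pluripotency markers POU5F1 (42386 and 38116 normalised counts in MEK5DD, 39714 and 38568 in WT) and NANOG (5655 and 5451 in MEK5DD, 4682 and 4576 in WT) were abundant in every library. Of the 11 pluripotency markers NANOG rose and SOX2 fell (18.2% called, beside 14.2% of all genes tested, by the test below). SOX2 had 4030 and 3942 in MEK5DD and 4643 and 4515 in WT (adjusted p = 0.0437 by limma). Reads of the MEK5DD pair gave a chi-square per degree of freedom of 6.11, against 1.88 in the WT pair. The labels do not say whether replicates are separate cultures, and each p-value therefore covers only library-to-library spread, possibly technical.

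Values below are normalised counts, that is, reads of a gene divided by 1 factor per library. Each test is limma on log2(normalised count + 1), two-sided, with p-values adjusted (Benjamini-Hochberg) across the 15721 genes that reached 10 normalised counts in at least 2 libraries. All 44 genes passed that filter. A gene is called when its adjusted p is under 0.05, and fold changes are those of log2(value + 1), where changes of low genes come out too small. Where 1 library is left out, the lone library of its group is assumed to vary like the other group. The MEK5DD pair varied more than the WT pair, so a call gained with a MEK5DD library left out rests on the closer WT pair. In bulk RNA, fewer cells with a transcript and less transcript per cell cannot be told apart, and this holds for every result here.

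Of the 44 genes 11 were called (25.0%), beside 14.2% of all genes tested. TEK, KDR, PDGFB and PTK7 rose (4 genes, with 7.69% of all genes tested called higher), and NTRK3, EGFR, CSF1, KIT, FLT1, VEGFA and ERBB3 fell (7 genes, with 6.47% of all genes tested called lower). When the mean had to reach 50 normalised counts, 10 of 33 members and 17.5% of all genes were called. The median log2 fold change was 0.06 over the 44 genes and 0.00 (-0.0023) over all genes tested. By role, 3 of 27 receptor genes rose and 5 fell, 1 of 16 ligand genes rose and 2 fell, and IGF2R was not called. The MEK5DD values lay entirely on 1 side of the WT values for 31 of the 44 genes, as they did for 56.2% of all genes tested. In the fit with no mean-variance trend the calls were KDR and TEK, higher, and NTRK3, lower, with 2.79% of all genes called. With a library left out, the members called were 16 for MEK5DD replicate 1 (23.8% of all genes), 17 for MEK5DD replicate 2 (29.4%), 8 for WT replicate 1 (7.61%) and 8 for WT replicate 2 (7.38%). The count was 11 by TMM scaling (14.3% of all genes), 11 by quantile normalisation (13.8%), 16 with a replicate block (21.3%) and 9 by DESeq2 (8.64%).

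**Figure D1:**
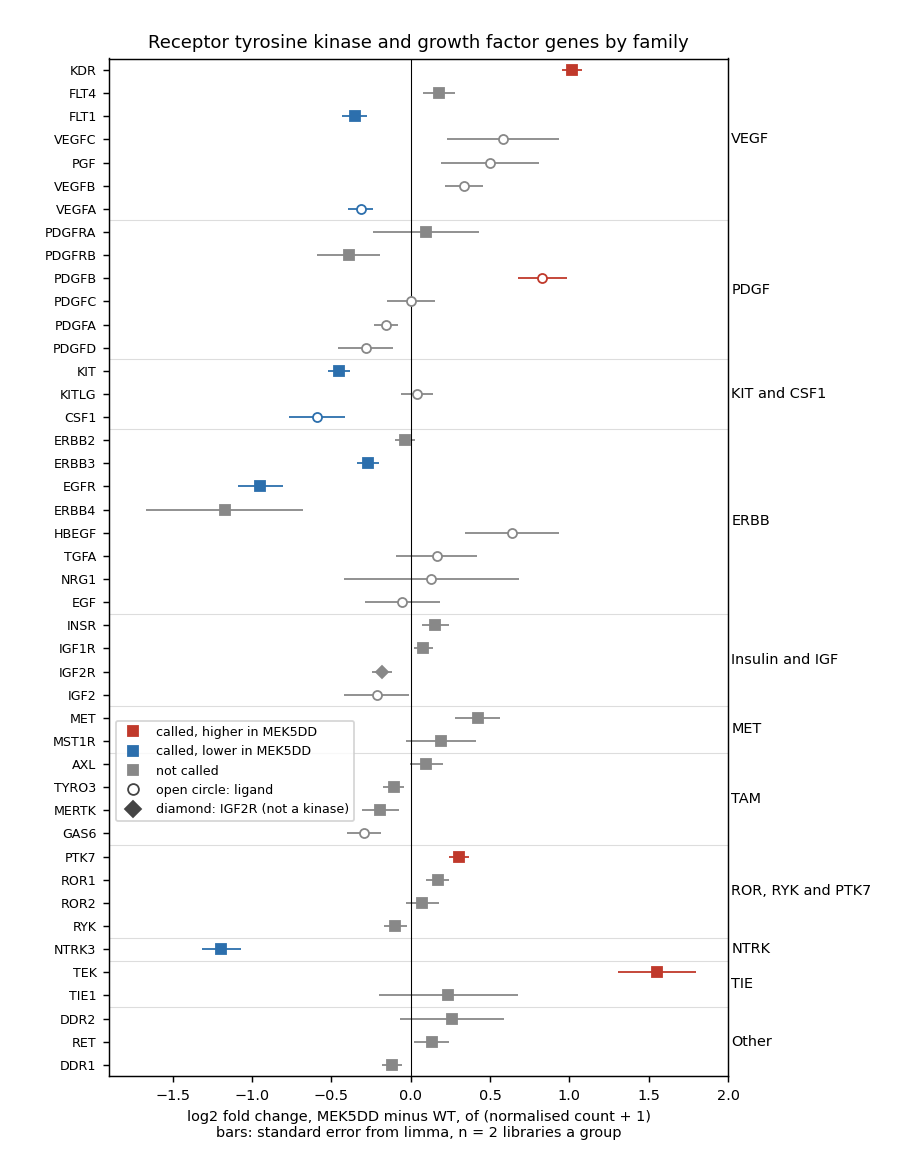
Log2 fold change of MEK5DD minus WT for the 44 listed genes, grouped by family, with bars of 1 standard error from limma (2 libraries a group); filled squares are receptors, open circles ligands and the diamond IGF2R. Red marks the 4 genes called higher, blue the 7 called lower and grey the genes not called, with TEK farthest to the right and NTRK3 farthest to the left.

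The promoters of 5 called receptors (KDR and FLT1 of the VEGF family, KIT, EGFR and TEK) are shown here, chosen after the values were seen, so that they can be compared as sequence; windows of other called receptors, NTRK3 among them, are not printed. They are RefSeq windows (GRCh38.p14), written 5′ to 3′ on the gene's strand, cut to the bases upstream of both the RefSeq transcript start and the GENCODE gene start. RefSeq windows were found for 36 of the 44 genes and for 7 of the 11 called genes. Capitals mark matches, on either strand, to the GC box GGGCGG, the cAMP response element TGACGTCA, the TATA box TATAAA, the AP-1 site TGANTCA and the MEF2 site, which is the binding site of a family of ERK5 substrates. No searched motif overlaps another.
KDR (chr4:55125596-55125845, minus strand): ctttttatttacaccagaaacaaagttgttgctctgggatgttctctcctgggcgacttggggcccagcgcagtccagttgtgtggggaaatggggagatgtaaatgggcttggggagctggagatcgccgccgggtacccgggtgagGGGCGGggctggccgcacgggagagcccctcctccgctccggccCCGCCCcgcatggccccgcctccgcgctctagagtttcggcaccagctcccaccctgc
FLT1 (chr13:28495146-28495378, minus strand): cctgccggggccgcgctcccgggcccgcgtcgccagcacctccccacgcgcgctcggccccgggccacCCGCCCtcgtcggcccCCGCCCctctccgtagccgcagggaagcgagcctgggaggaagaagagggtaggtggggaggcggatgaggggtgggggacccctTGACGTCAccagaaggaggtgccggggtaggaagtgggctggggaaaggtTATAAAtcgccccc
KIT (chr4:54657707-54657917, plus strand): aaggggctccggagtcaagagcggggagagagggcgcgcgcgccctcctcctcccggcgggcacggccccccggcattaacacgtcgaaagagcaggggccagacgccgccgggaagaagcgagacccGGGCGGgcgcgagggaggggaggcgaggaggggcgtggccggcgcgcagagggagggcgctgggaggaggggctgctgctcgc
EGFR (chr7:55018767-55019016, plus strand): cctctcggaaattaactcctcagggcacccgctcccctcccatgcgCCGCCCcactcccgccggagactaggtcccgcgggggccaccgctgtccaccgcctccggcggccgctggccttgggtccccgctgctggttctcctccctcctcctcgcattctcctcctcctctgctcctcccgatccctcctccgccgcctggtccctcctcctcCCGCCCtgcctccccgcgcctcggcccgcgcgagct
TEK (chr9:27108975-27109140, plus strand): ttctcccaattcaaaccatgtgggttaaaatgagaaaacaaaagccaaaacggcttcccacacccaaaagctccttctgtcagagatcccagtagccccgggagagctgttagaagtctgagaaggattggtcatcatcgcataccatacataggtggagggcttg

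The KDR window holds 2 GC boxes, starting 102 and 58 bases before the RefSeq start, and no TATA box in these letters. FLT1, the other VEGF receptor gene shown, holds 2 GC boxes, a cAMP response element starting 81 bases before the start and a TATA box starting 31 bases before it. Of all 35116 RefSeq windows cut to the same 233 bases, 1.46% hold the cAMP response element and 10.4% the TATA box. The EGFR window holds 2 GC boxes, and 42.6% of all 250-base windows hold at least 1. The KIT window holds 1, and 37.5% of all windows cut to its 211 bases hold at least 1. TEK holds none of the motifs, and its window is 47.6% G or C, against 65.2% for KDR, 73.4% for FLT1, 76.3% for KIT and 73.6% for EGFR. AP-1 and MEF2 sites in these letters are in none of the 5 windows shown. They are in 6.57% and 2.80% of all windows at 250 bases. At 166 bases, the length of the TEK window, the shares are 4.30% and 1.97%. A match is a description of letters and not of binding.

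KDR and FLT1, both receptors for VEGFA, moved in opposite directions. KDR, the main signalling receptor of the VEGF family, had 5366 and 5608 normalised counts in the MEK5DD libraries, against 2757 and 2669 in the WT libraries. KDR rose 2.02-fold, with both MEK5DD values far above both WT values (log2 fold change 1.02, SE 0.06, adjusted p = 6.99e-07 by limma). FLT1, which binds VEGFA tightly and signals weakly, and whose soluble form acts as a decoy, had 1687 and 1972 in MEK5DD and 2287 and 2372 in WT. It fell 1.28-fold, with the groups apart and the MEK5DD libraries farther from each other than the WT libraries (log2 fold change -0.35, SE 0.08, adjusted p = 0.0118 by limma). The FLT1 call was lost with WT replicate 2 left out (adjusted p = 0.110) and in the fit with no mean-variance trend (adjusted p = 0.182), whereas KDR passed in every setting tried. Gene counts do not separate the soluble from the membrane form of FLT1.

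The KDR count was 3.18 and 2.84 times the FLT1 count in the MEK5DD libraries and 1.21 and 1.13 times in the WT libraries. This ratio, like the others between members given here, was chosen after its values were seen. The groups do not overlap, and an exact two-sided permutation test of 2 against 2 libraries cannot give a p below 0.333. KDR made up 16.2% and 16.8% of all reads of the 27 receptor genes in MEK5DD, against 8.78% and 8.56% in WT. FLT4, the receptor for VEGFC in lymphatic endothelium, was not called (344 and 339 in MEK5DD, 294 and 310 in WT, adjusted p = 0.289 by limma).

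Among the VEGF ligands, VEGFA, the principal angiogenic factor and a hypoxia target, fell 1.24-fold. It had 706 and 704 normalised counts in MEK5DD libraries and 847 and 908 in WT libraries (log2 fold change -0.32, SE 0.08, adjusted p = 0.0213 by limma). The VEGFA groups did not overlap, but the call was lost with WT replicate 1 left out (adjusted p = 0.100), with WT replicate 2 left out (adjusted p = 0.326), in the fit with no trend (adjusted p = 0.138) and by DESeq2 (adjusted p = 0.0607). The remaining ligands had positive fold changes and were not called. VEGFB, a ligand of FLT1, had 281 and 254 in MEK5DD and 223 and 199.98 in WT (adjusted p = 0.0826). Its log2 fold change was 0.27 with MEK5DD replicate 1 left out and 0.41 with MEK5DD replicate 2 left out. PGF, also a ligand of FLT1, had 59.1 and 34.9 in MEK5DD and 25.5 and 39.6 in WT, with overlapping groups (adjusted p = 0.326). The PGF log2 fold change was 0.13 with MEK5DD replicate 1 left out and 0.87 with MEK5DD replicate 2 left out. VEGFC had 23.6 and 18.9 in MEK5DD and 14.1 and 13.5 in WT (adjusted p = 0.317).

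TEK, the angiopoietin receptor of endothelial and some blood-forming cells, rose most among the 44 genes. It had 64.5 and 66.8 normalised counts in MEK5DD and 23.8 and 19.8 in WT, from 67 to 71 recovered reads in MEK5DD and 19 to 27 in WT. The groups stood well apart (2.94-fold, log2 fold change 1.55, SE 0.24, adjusted p = 0.00128 by limma), and the call held in each fit that left out 1 library. Its relative TIE1, an orphan receptor that pairs with TEK, stayed near the filter with 17.3 and 9.97 in MEK5DD and 10.6 and 11.5 in WT (adjusted p = 0.777). PTPRB, an endothelial receptor phosphatase that acts on TEK, fell 2.70-fold, with 188 and 180 in MEK5DD and 496 and 502 in WT (log2 fold change -1.43, SE 0.10, adjusted p = 2.72e-06 by limma). ANGPT1, the activating ligand of TEK, had 74.5 and 90.7 in MEK5DD and 62.5 and 70.8 in WT and was not called (adjusted p = 0.337); it was named after its values were seen, and ANGPT2 is not listed.

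Markers of endothelium were read beside KDR and TEK. Of 12 endothelial markers 7 are listed and 6 were tested, 0 rose and 2 fell (33.3%, beside 14.2% of all genes tested called and 6.47% called lower), and their summed normalised count was 477 to 509 in MEK5DD and 567 to 649 in WT. The defining markers PECAM1 and CDH5 are not listed, nor are EMCN, MMRN1 and ROBO4. EGFL7, named for its share, made up most of the sum and was not called (419 and 369 in MEK5DD, 408 and 468 in WT). CLDN5 (15.4 and 25.9 in MEK5DD, 6.17 and 12.5 in WT) and VWF (18.2 and 25.9 in MEK5DD, 30.8 and 37.5 in WT) had groups apart, in opposite directions. Neither was called (adjusted p = 0.138 and 0.202 by limma), and both were named after their values were seen. The called falls were in ERG, an endothelial transcription factor gene (26.4 and 21.9 in MEK5DD, 71.3 and 91.7 in WT, adjusted p = 0.000593 by limma), and in TAL1, a blood and endothelial factor gene (0.909 and 2.99 in MEK5DD, 17.6 and 15.6 in WT, adjusted p = 0.0116). The TAL1 call was lost with WT replicate 1 left out (adjusted p = 0.126), with WT replicate 2 left out (adjusted p = 0.0925) and in the fit with no trend (adjusted p = 0.0600). Of 9 markers of primitive streak and mesoderm, where KDR is also expressed, 5 are listed and tested, with a summed count of 281 to 294 in MEK5DD and 195 to 218 in WT. MIXL1, the largest part of that sum in every library, rose (165 and 201 in MEK5DD, 89.8 and 94.8 in WT). LHX1, near the filter, fell (11.8 and 3.99 in MEK5DD, 29.1 and 19.8 in WT). With these, 40.0% were called, beside 14.2% of all genes tested, and TBXT is not listed. MIXL1 lost its call in the fit with no trend (adjusted p = 0.0513). LHX1 lost its call in that fit (adjusted p = 0.183) and with WT replicate 1 left out, among others. The part of these markers in the KDR result was not tested.

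**Figure D2:**
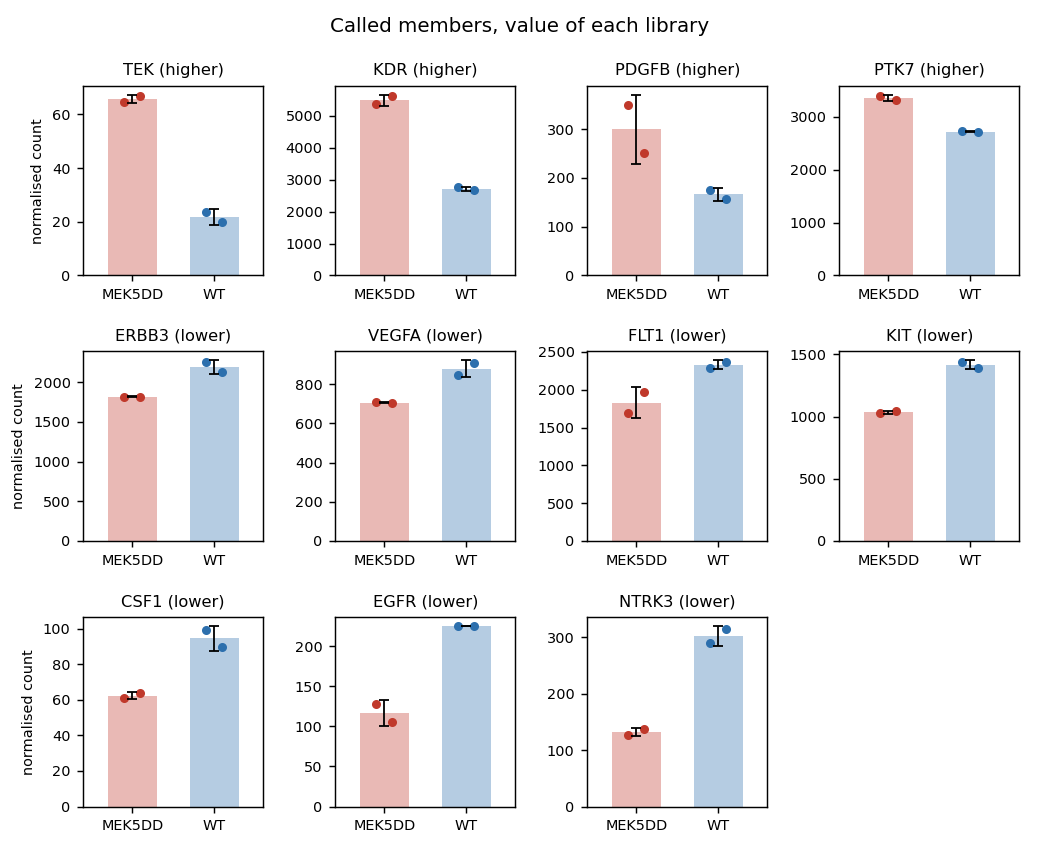
Normalised count of each library for the 11 called genes, with the MEK5DD libraries on the left and the WT libraries on the right of each panel; bars are the mean and whiskers the SD of 2 libraries, on axes that start at 0. The libraries of the groups do not overlap in any panel, from TEK (64.5 and 66.8 in MEK5DD, 23.8 and 19.8 in WT) to NTRK3 (126 and 137 in MEK5DD, 289 and 315 in WT).

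KDR and KIT lie near each other and near PDGFRA, as a cluster of related receptor genes on chromosome 4 (GRCh38, GENCODE v29 coordinates). PDGFRA spans 54229097 to 54298247, KIT 54657918 to 54740715 and KDR 55078259 to 55125595, with gaps of 359.7 and 338 kilobases. KIT, the stem cell factor receptor of germ, blood-forming and pigment cells, had 1028 and 1044 normalised counts in MEK5DD and 1442 and 1394 in WT. It fell 1.37-fold, with each pair of libraries close together (log2 fold change -0.45, SE 0.07, adjusted p = 0.00129 by limma), and its call was lost only in the fit with no trend (adjusted p = 0.0756) among the settings tried. PDGFRA, a receptor of mesoderm and primitive endoderm, was low and had overlapping groups, with 26.4 and 23.9 in MEK5DD and 30.8 and 17.7 in WT (adjusted p = 0.885). The 3 neighbours thus had a rise (KDR), a fall (KIT) and no call (PDGFRA). Of the 16 listed genes within 1000 kilobases of the cluster 15 were tested and 5 were called (33.3%, beside 14.2% of all genes tested). Apart from KDR and KIT these were TMEM165, higher (adjusted p = 0.0211), and NMU (adjusted p = 0.00191) and LNX1 (adjusted p = 0.0255), lower; TMEM165 and LNX1 lost their calls when either WT library was left out, and all 3 in the fit with no trend. They were named by position and call. The window was drawn around KDR and KIT, which are among the 5 called, and this choice raises the 33.3%. That share therefore cannot be weighed against the share of all genes.

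KITLG, the stem cell factor that activates KIT, was not called (402 and 456 in MEK5DD, 406 and 426 in WT, adjusted p = 0.832 by limma). CSF1, the macrophage growth factor, had 60.9 and 63.8 normalised counts in MEK5DD and 99.5 and 89.6 in WT. CSF1 fell 1.51-fold without overlap (log2 fold change -0.59, SE 0.18, adjusted p = 0.0442 by limma), and this was the least stable of the 11 calls, holding in 9 of 16 settings. It was lost with WT replicate 1 (adjusted p = 0.292) or WT replicate 2 (adjusted p = 0.110) left out, in the fit that dropped MEK5DD replicate 1 (adjusted p = 0.0536), and by DESeq2 (adjusted p = 0.228), in the fit with no trend (adjusted p = 0.0693), after quantile normalisation (adjusted p = 0.0537) and with no filter (adjusted p = 0.0511). Its receptor gene CSF1R is not listed. Of 8 blood markers 1 is listed, RUNX1, which rose (45.4 and 48.8 in MEK5DD, 18.5 and 22.9 in WT, adjusted p = 0.0135), while the defining markers PTPRC and SPI1 are not listed. The RUNX1 call was lost with WT replicate 1 left out (adjusted p = 0.0552) and by DESeq2 (adjusted p = 0.0789).

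In the PDGF family the called gene was a ligand. PDGFB, which recruits pericytes and binds both PDGF receptors, had 349.8 and 250.2 normalised counts in MEK5DD and 175 and 157 in WT. The lower MEK5DD library was above both WT libraries, and the MEK5DD pair was the more spread (1.78-fold, log2 fold change 0.83, SE 0.15, adjusted p = 0.00359 by limma). The PDGFB call held in each fit that left out 1 library and was lost in the fit with no trend (adjusted p = 0.117). PDGFA, the most abundant ligand per kilobase of exon, had 2528 and 2176 in MEK5DD and 2622 and 2598 in WT (adjusted p = 0.216). Its log2 fold change was -0.26 with MEK5DD replicate 1 left out and -0.046 with MEK5DD replicate 2 left out. The PDGFB count was 0.138 and 0.115 of the PDGFA count in MEK5DD and 0.0668 and 0.0605 in WT. PDGFC (113 and 121 in MEK5DD, 125 and 108 in WT) and PDGFD (79.1 and 72.8 in MEK5DD, 97.8 and 87.5 in WT), whose products need proteolytic activation, were not called. PDGFRB, the receptor of pericytes and fibroblasts, had 54.5 and 67.8 in MEK5DD and 85.4 and 74.99 in WT (adjusted p = 0.219).

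Some fibroblast and feeder cell markers rose, as PDGFB did. Of 10 such markers 6 are listed and tested and 4 rose (66.7%, beside 14.2% of all genes tested called and 7.69% called higher), led by COL6A3 (267 and 309 in MEK5DD, 89.0 and 108 in WT) and TAGLN (811 and 783 in MEK5DD, 391 and 394 in WT). Their summed count was 9188 to 9505 in MEK5DD and 7489 to 7538 in WT, most of it from THY1. THY1, named for its share of the sum, had 6214 and 6072 in MEK5DD and 5775 and 5703.5 in WT. It was not called (adjusted p = 0.302 by limma). COL3A1, LUM, DCN and POSTN are not listed. The part of the listed markers in the PDGFB result was not tested.

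**Figure D3:**
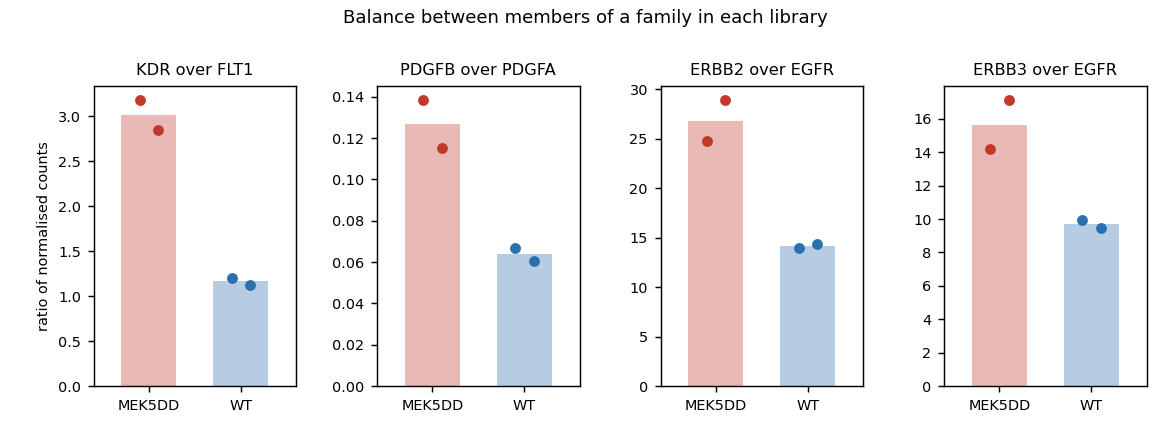
Ratio of normalised counts of 2 genes of the same family in each library, with MEK5DD on the left and WT on the right; points are libraries and bars their mean. The MEK5DD libraries lie above the WT libraries in all 4 ratios, with KDR over FLT1 at 3.18 and 2.84 in MEK5DD and 1.21 and 1.13 in WT; ratios between genes of different length are not ratios of transcript number.

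EGFR and ERBB3 fell, and ERBB2 was not called. EGFR, the receptor for EGF, TGFA and HBEGF, had 128 and 106 normalised counts in MEK5DD and 225 and 225 in WT. It fell 1.93-fold with groups far apart (log2 fold change -0.95, SE 0.14, adjusted p = 0.000849 by limma), and its call was lost in the fit with no trend (adjusted p = 0.0512) and in no other setting tried. ERBB3, a neuregulin receptor with little kinase activity that signals through ERBB2, had 1818 and 1809 in MEK5DD and 2249 and 2124 in WT. Its fall was 1.20-fold (log2 fold change -0.27, SE 0.07, adjusted p = 0.0188 by limma) and was lost with WT replicate 1 left out (adjusted p = 0.356), with WT replicate 2 left out (adjusted p = 0.138) and in the fit with no trend (adjusted p = 0.169). ERBB2, the partner receptor without a known ligand, had 3172 and 3054 in MEK5DD and 3150 and 3240 in WT, overlapping groups (log2 fold change -0.04, SE 0.06, adjusted p = 0.749). ERBB2 overlaps MIEN1 and PGAP3 on the other strand, and the strand setting of the counting was not stated in the labels. The ERBB2 count was 24.8 and 28.9 times the EGFR count in MEK5DD and 14.0 and 14.4 times in WT.

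ERBB4, a neuregulin receptor of neural and cardiac tissue, was near the detection limit, with 6.36 and 16.9 normalised counts in MEK5DD and 37.0 and 16.7 in WT. Its mean was 2.25-fold lower, but the groups overlapped and it was not called (adjusted p = 0.146). It passed with replicate 2 of either group left out, but not with replicate 1 of either left out. HBEGF, a membrane-anchored EGFR ligand, had 60.9 and 42.9 in MEK5DD and 24.7 and 42.7 in WT (1.56-fold, adjusted p = 0.187). HBEGF also passed with replicate 2 of either group left out, but not with replicate 1 of either left out. TGFA, EGF and NRG1 had overlapping groups and adjusted p-values of 0.729, 0.911 and 0.908. NRG1 was the least abundant of the 44 genes per kilobase, with 12.7 and 6.98 normalised counts in MEK5DD and 5.28 and 13.5 in WT. Of 10 trophoblast and amnion markers, tissues in which EGFR is prominent, 6 are listed and 5 tested, of which GATA3 rose and 3 fell, IGFBP3 among them (80.0% called, beside 14.2% of all genes tested). GATA3 was low, with 39.1 and 35.9 in MEK5DD and 7.05 and 15.6 in WT. The summed count of the listed markers was 1183 to 1217 in MEK5DD and 1201 to 1319 in WT, most of it from TFAP2C. TFAP2C, named for its share of the sum, was not called (913 and 932 in MEK5DD, 753 and 833 in WT). The part of these markers in the EGFR result was not tested.

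NTRK3, the receptor for neurotrophin-3 in developing neurons, fell most among the called genes. It had 126 and 137 normalised counts in MEK5DD and 289 and 315 in WT, with no library of either group near the other (2.29-fold lower, log2 fold change -1.19, SE 0.12, adjusted p = 5.48e-05 by limma). The call passed in every setting tried. Most tested neuroectoderm and neural crest markers fell beside it. Of 13 markers 8 are listed and 6 were tested, and 5 fell and 0 rose. That is 83.3% called, beside 14.2% of all genes tested called and 6.47% called lower. Their summed count was 1019 to 1108 in MEK5DD and 2770 to 2859 in WT, with SIX6 the largest part in WT. FOXD3, the tested marker that was not called, had 434 and 348 in MEK5DD and 407 and 436 in WT. The listed markers that were not tested, named for that reason, were low and higher in MEK5DD. These were PAX6 (6.36 and 5.98 in MEK5DD, 1.76 and 3.12 in WT) and TFAP2A (9.09 and 14.0 in MEK5DD, 6.17 and 2.08 in WT). SIX6, an eye-field factor gene, had 199 and 186 in MEK5DD and 1272 and 1282 in WT, and SOX1, an early neural plate factor gene, had 8.18 and 11.96 in MEK5DD and 49.3 and 65.6 in WT. Their part in the NTRK3 result was not tested.

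PTK7, a receptor-like protein without catalytic activity that acts in WNT and planar cell polarity signalling, rose by a small amount. It had 3397 and 3312 normalised counts in MEK5DD and 2727 and 2709 in WT (1.23-fold, log2 fold change 0.30, SE 0.06, adjusted p = 0.00624 by limma). The groups were apart, but the call was lost with WT replicate 1 left out (adjusted p = 0.119), with WT replicate 2 left out (adjusted p = 0.141) and in the fit with no trend (adjusted p = 0.130). The other WNT-binding receptor-like genes were not called. ROR1 had 1740 and 1960 in MEK5DD and 1663 and 1622 in WT (adjusted p = 0.165). It passed with MEK5DD replicate 1 left out but not with MEK5DD replicate 2 left out. ROR2 (361 and 329.9 in MEK5DD, 314 and 343 in WT) and RYK (1185 and 1250 in MEK5DD, 1292 and 1310 in WT) had adjusted p-values of 0.705 and 0.425.

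The receptors for insulin and IGF were abundant and not called. IGF1R, the receptor through which IGFs and high insulin support stem cell growth, had 4764 and 4829 normalised counts in MEK5DD and 4532 and 4548 in WT (log2 fold change 0.08, SE 0.06, adjusted p = 0.421). INSR had 861 and 769 in MEK5DD and 739 and 724 in WT (adjusted p = 0.266). It passed with MEK5DD replicate 2 left out but not with MEK5DD replicate 1 left out. IGF2R, which carries IGF2 to lysosomes, had 2392 and 2413 in MEK5DD and 2684 and 2763 in WT (log2 fold change -0.18, adjusted p = 0.0790). It passed as lower with either MEK5DD library left out and after quantile normalisation (adjusted p = 0.0463), but not with either WT library left out. IGF2 itself was low, with 58.2 and 69.8 in MEK5DD and 83.7 and 65.6 in WT (adjusted p = 0.541). IGF1R and IGF2R each overlap another listed gene on the same strand, and their counts are uncertain to that extent.

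Of the MET, TAM and remaining receptors none was called. MET, the hepatocyte growth factor receptor, had 284 and 347 normalised counts in MEK5DD and 265 and 206 in WT (1.34-fold, adjusted p = 0.0674). It passed with replicate 1 of either group left out, but not with replicate 2 of either left out. GAS6, the ligand of the TAM receptors, which mediate uptake of dying cells, had 334 and 294 in MEK5DD and 371 and 399.95 in WT (adjusted p = 0.0901). GAS6 passed with MEK5DD replicate 1 left out but not with MEK5DD replicate 2 left out. The TAM receptor genes AXL, TYRO3 and MERTK had log2 fold changes of 0.10, -0.11 and -0.19. DDR1, a collagen receptor, had 3804 and 3680 in MEK5DD and 4073 and 4045 in WT (adjusted p = 0.230). DDR1 passed as lower with MEK5DD replicate 1 left out but not with MEK5DD replicate 2 left out. DDR2, RET and MST1R, receptors for collagen, GDNF-family ligands and macrophage-stimulating protein, had adjusted p-values of 0.661, 0.484 and 0.632.

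Per kilobase of annotated exon, which allows levels to be compared between genes, KDR ranked highest over both groups. Its level was 818 and 855 normalised counts per kilobase in MEK5DD and 420 and 407 in WT. In MEK5DD KDR stood above every other member, followed by PDGFA (609 and 524 per kilobase). In WT the order at the top was different, with PDGFA (632 and 626 per kilobase) above DDR1 (446 and 443) and KDR. DDR1, PTK7, IGF1R, ERBB2, ROR1, ERBB3, KIT and TYRO3 completed the 10 highest by the mean of both groups. TYRO3, the lowest of these, had 173 and 165 per kilobase in MEK5DD and 183 and 180 in WT. At the low end PDGFRA, DDR2, TIE1, ERBB4 and NRG1 had at most 3.17 per kilobase in any library. Between these ends several called genes changed place among their neighbours: TEK had 13.4 and 13.9 per kilobase in MEK5DD and 4.95 and 4.12 in WT, and NTRK3 had 4.72 and 5.10 in MEK5DD and 10.8 and 11.8 in WT. Exon lengths are unions over all annotated transcripts, so genes with many long isoforms, such as NTRK3 at 26.8 kilobases, are understated.

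**Figure D4:**
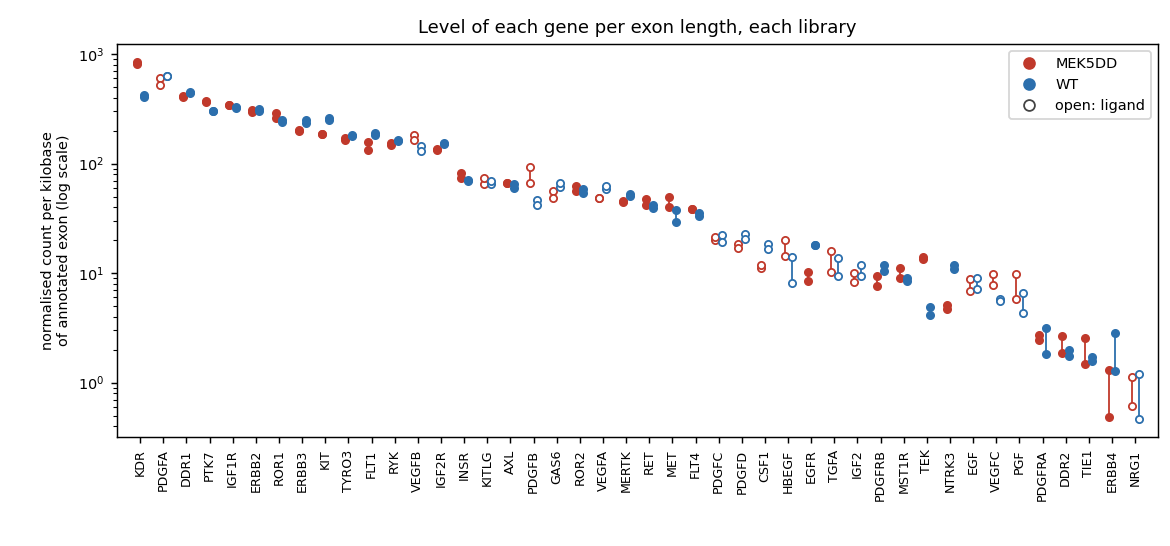
Normalised count per kilobase of annotated exon (log scale) in each library for the 44 genes, ordered by the mean of both groups, with MEK5DD in red left of WT in blue and ligands as open circles. KDR is highest in MEK5DD (818 and 855), PDGFA is highest in WT (632 and 626), and TEK and NTRK3 show well-separated groups among the low genes.

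All receptor genes together took 0.208% and 0.213% of recovered reads in MEK5DD and 0.202% and 0.201% in WT. Ligand genes took 0.0324% and 0.0299% in MEK5DD and 0.0338% and 0.0337% in WT. KDR, which rose, and FLT1, KIT and ERBB3, which fell, are all in the receptor sum. The VEGF receptor genes summed to 7397 and 7920 normalised counts in MEK5DD and 5338 and 5351 in WT, and the VEGF ligand genes to 1069 and 1012 in MEK5DD and 1110 and 1161 in WT. The higher VEGF receptor sum reflects KDR, since FLT1 fell and FLT4 was not called.

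Genes that work around these receptors were counted in 5 lists, beside the 14.2% of all genes tested that were called. Of 29 tested co-receptor and ligand-processing genes 8 rose and 4 fell (41.4%, median log2 fold change 0.04). CD44, a hyaluronan receptor that acts as a co-receptor for MET, rose 2.87-fold, with 66.3 and 91.7 normalised counts in MEK5DD and 28.2 and 25.0 in WT (adjusted p = 0.00135 by limma). NRP2, a VEGF and semaphorin co-receptor, had 789 and 782 in MEK5DD and 524 and 571 in WT (adjusted p = 0.00163), and was named after its values were seen; NRP1 is not listed. Falls were found in the glypican GPC3 (399 and 324 in MEK5DD, 644 and 710 in WT), in GFRA1, the GDNF co-receptor of RET (59.1 and 57.8 in MEK5DD, 103 and 102 in WT), and in SULF1 and SULF2, enzymes that trim heparan sulfate (log2 fold changes -0.58 and -0.69). GPC3, SULF1 and SULF2 lost their calls in the fit with no trend (adjusted p = 0.0639, 0.0634 and 0.0637) and GFRA1 by DESeq2 (adjusted p = 0.0568). NRP2 also lost its call in the fit with no trend (adjusted p = 0.0732), and CD44 kept its call in every setting tried. The count of rises was 3 with either WT library left out, 1 in the fit with no trend and 5 by DESeq2.

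Of 11 tested IGF-binding protein genes and related IGF regulators 1 rose and 5 fell (54.5%, median log2 fold change -0.03). IGFBP5 had 59.1 and 66.8 normalised counts in MEK5DD and 181 and 149 in WT (log2 fold change -1.37, SE 0.17, adjusted p = 0.000219 by limma). IGFBP3, the main carrier of circulating IGF, had 25.4 and 25.9 in MEK5DD and 60.8 and 67.7 in WT (log2 fold change -1.29, adjusted p = 0.00312); it is also on the trophoblast and amnion list. STC1, an inhibitor of IGFBP-cleaving proteases, fell by 0.59 on the log2 scale, a call lost in the fit with no trend (adjusted p = 0.0815). The RNA-binding protein genes IGF2BP3 (log2 fold change -0.35) and IGF2BP1 (-0.24) lost their calls with WT replicate 1 left out (adjusted p = 0.0585 and 0.267), with WT replicate 2 left out (adjusted p = 0.0676 and 0.281) and in the fit with no trend (adjusted p = 0.143 and 0.182). The gene that rose was STC2 (log2 fold change 0.23, adjusted p = 0.0455), of the same family as STC1, and it was named after its values were seen. Its call was lost with WT replicate 1 (adjusted p = 0.399) or WT replicate 2 (adjusted p = 0.346) left out, in the fit with no trend (adjusted p = 0.191), by DESeq2 (adjusted p = 0.141), with upper-quartile factors (adjusted p = 0.0598) and after quantile normalisation (adjusted p = 0.0757). The count of falls was 3 without either WT library.

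Of 43 tested adaptor, RAS, PI3K and phospholipase C genes 7 rose and 0 fell (16.3%, median log2 fold change 0.06). PIK3CD, a catalytic PI3K subunit best known in leukocytes, had 654 and 595 normalised counts in MEK5DD and 435 and 426 in WT (log2 fold change 0.53, SE 0.09, adjusted p = 0.00219 by limma). PIK3R1, PIK3CA and the SRC-family kinase gene FYN rose by 0.41, 0.40 and 0.37 on the log2 scale and lost their calls with WT replicate 1 left out (adjusted p = 0.0730, 0.0731 and 0.0768) and with WT replicate 2 left out (adjusted p = 0.0583, 0.172 and 0.112). All of these calls were lost in the fit with no trend, where the list had 0 rises, and with upper-quartile scaling 1 member of the list was called lower. With MEK5DD replicate 2 left out more members of this list were called lower, as were more of all genes tested.

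Of 41 tested attenuators and other regulators of receptor signalling 5 rose and 5 fell (24.4%, median log2 fold change 0.00, -0.0036). PTPRB, described with TEK, was the largest fall. DOK1 and DOK6, docking proteins of which DOK1 restrains RAS and DOK6 binds RET and NTRK3, fell 2.24-fold and 1.86-fold (adjusted p = 0.000704 and 0.00632 by limma). DOK1 had 65.4 and 56.8 normalised counts in MEK5DD and 134 and 142 in WT. LRIG3, of a family of transmembrane regulators of ERBB and other receptors, fell by 0.69 on the log2 scale, a call lost in the fit with no trend (adjusted p = 0.0587). SH2B3, an adaptor that damps signalling from KIT and cytokine receptors, rose 1.57-fold, with 1219 and 1223 in MEK5DD and 748 and 805 in WT (adjusted p = 0.000162), and was lost in the fit with no trend (adjusted p = 0.0512). With MEK5DD replicate 2 left out the list had more rises and more falls, as did all genes tested.

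Of 22 tested further receptor and ligand genes 1 rose and 1 fell (9.09%, median log2 fold change -0.05). ALKAL2, a ligand of ALK, had 71.8 and 69.8 normalised counts in MEK5DD and 39.6 and 25.0 in WT (2.21-fold, adjusted p = 0.0104 by limma), a call lost with WT replicate 2 left out (adjusted p = 0.0572) and in the fit with no trend (adjusted p = 0.100). PROS1, a ligand of the TAM receptors, fell by 0.39 on the log2 scale (adjusted p = 0.0375), and was lost with WT replicate 1 left out (adjusted p = 0.0609), with WT replicate 2 left out (adjusted p = 0.333), in the fit with no trend (adjusted p = 0.165) and by DESeq2 (adjusted p = 0.130). With upper-quartile scaling 5 members of this list were called lower, in a fit that called 15.4% of all genes tested.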

How the data were processed

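Signal in the deposited table, that is, normalised gene counts made by the authors, covers 17472 genes in 4 libraries. Within 0.001, 100% of values are whole multiples of their column's smallest value, and division by it gave recovered reads; that the authors used 1 factor per library is inferred from this. Trimmomatic 0.36, STAR, featureCounts 1.5.3, DESeq2 1.26.0 and hg38 are named in the submitters' processing notes, with no role or order.

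A linear model with a mean-variance trend was fitted to log2(value + 1) by limma 3.58.1 (R 4.3.3), without covariates, for genes of at least 10 in at least 2 libraries. Coordinates and exon lengths came from GENCODE v29. Alternatives were other pseudocounts, filters and scalings, no trend, a replicate term, each library left out, and edgeR 4.0.16 and DESeq2 1.42.0 on recovered reads; edgeR called 2306 genes. The procedure was also run on simulated counts in which both groups shared 1 dispersion per gene. That run cannot show how the test behaves here, where the MEK5DD pair varied more than the WT pair.

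The members and lists were chosen with earlier results of these data known. Named genes are MAP2K5, every member, up to 5 called genes per pathway list and up to 2 per marker list with the largest change; exceptions are stated, and 1 gene that the rule names is not reported here. Promoter windows came from RefSeq.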

Additional observations from a re-analysis of the deposited data

How the results depend on the processing

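With all libraries and the trend, 2226 genes (1209 higher, 1017 lower), 11 members (4 higher, 7 lower) and 37 genes of the 5 pathway lists were called. Without the mean-variance trend these were 439 genes (249 higher, 190 lower), 3 members (2 higher, 1 lower) and 7 list genes. DESeq2 on recovered reads called 1358 genes (769 higher, 589 lower). Leaving out 1 library gave 1160 to 4629 genes (668 to 2383 higher, 482 to 2246 lower), 8 to 17 members (4 to 8 higher, 4 to 10 lower) and 20 to 67 list genes; the lone library of a group is assumed there to vary like the other group. Libraries of the same number share only that number, as far as the labels say, and with 2 pairs the data cannot settle a pairing (correlation of same-number deviations 0.0469, and 0.124 over genes with a mean over 100). With a replicate block 3349 genes (1616 lower) and 16 members were called, the 11 and also MET (adjusted p = 0.00426), ERBB4 (0.0192), IGF2R (0.0372), GAS6 (0.0396) and VEGFB (0.0412). The cause of these shifts was not tested. Among uncalled members the log2 fold change of PDGFC was -0.012 with upper-quartile factors, -0.0074 with edgeR and -0.0051 with DESeq2. Leaving out 1 library also turned the sign of some uncalled members, whose log2 fold changes ranged from -0.29 to 0.48 for PDGFRA, -0.10 to 0.10 for PDGFC, -0.050 to 0.13 for KITLG, -0.23 to 0.12 for EGF, -0.15 to 0.47 for TGFA, -0.47 to 0.74 for NRG1 and -0.13 to 0.61 for TIE1. TEK has no value at a mean of at least 50. Genes with few reads, such as ERBB4, NRG1 and TIE1, are limited by depth.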
